A study of Homo sapiens with 5 samples.

Results

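The SLC25 genes encode the mitochondrial carriers, the transporters that move nucleotides, phosphate, organic acids, amino acids, cofactors and metals across the inner mitochondrial membrane. They were taken as every gene whose symbol is SLC25A followed by a number, and 38 such genes were found among the 12468 genes listed in any of the 3 deposited tables. All 38 were listed both in the table of USP28-KO against USP28-Ctrl, which holds 11102 genes, and in the tables of the reconstituted cells, which hold 12342. A RefSeq reference names 48 protein-coding genes of this form, and the other 10 (SLC25A2, SLC25A18, SLC25A27, SLC25A31, SLC25A34, SLC25A41, SLC25A47, SLC25A48, SLC25A52 and SLC25A53) were not analysed here.

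RNA was sequenced from HLF, an established human hepatocellular carcinoma line, to study the deubiquitinase USP28, which stabilizes the transcription factor MYC. The knockout experiment comprised USP28-Ctrl cells with a control guide RNA and USP28-KO cells with a guide RNA against USP28. The reconstitution experiment comprised USP28-KO cells that carried the empty pRRL vector, wildtype USP28 (USP28-WT) or a monomeric USP28 (USP28-M) with a point mutation in the dimerization interface, both HA-tagged and introduced by lentivirus. All groups of the reconstitution experiment therefore share the knockout, none had a further treatment, and 1 sample was listed for each group. USP28-KO cells were picked as single clones, and how many clones the libraries represent is not given in the sources used here.

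The values used are averages. Each table holds for each gene an average log2 CPM (a read count scaled to library size, on a log2 scale) over all libraries of a fit. One fit covered the 2 groups of the knockout experiment and another the 3 groups of the reconstitution experiment. Both reconstitution tables hold the same average for all 12342 genes. An average cannot show whether USP28-KO, USP28-WT or USP28-M moved a carrier, and differences between conditions were not analysed here. Values of single libraries were not analysed either, so the replicate error is unknown and no difference was tested. The spacing of the lowest averages corresponded to about 0.130 CPM per read in the knockout experiment and 0.0328 CPM in the reconstitution experiment, or about 7693420 and 30462200 reads over all libraries of each fit together. The latter is the less certain, since 65.7% of the low genes lay near whole reads there and 96.8% in the knockout experiment. At this depth a carrier had between 45.0 and 5894 reads in the knockout experiment and between 207 and 27614 in the reconstitution experiment. Relative to the level, counting error alone was therefore smaller in the reconstitution experiment.

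The cells were checked against markers of their label. Of 10 hepatocyte markers, FGB alone was listed in the knockout experiment (average log2 CPM 6.003), and FGB and SERPINA1 were among those listed in the reconstitution experiment (3.20 and 1.88). ALB, APOB, TTR and HNF4A were not among the genes listed, nor was AFP. KRT8, KRT18, VIM and CDH2 had average log2 CPM between 7.72 and 12.0 in both experiments, and CDH1 and EPCAM were not listed. The mesenchymal markers FN1 and ZEB1 were lower, at 6.32 and 4.31 in the knockout and 5.20 and 3.49 in the reconstitution experiment. The average of USP28 itself was 5.15 in the knockout and 9.79 in the reconstitution experiment. The latter includes the introduced USP28, and as each average pools its groups it does not check the label of any one of them.

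Carriers share a fold that opens alternately to the cytosol and to the matrix, and most exchange one solute for another. Through them the matrix receives ADP, phosphate and fuels, and returns ATP and the citrate, aspartate and ornithine-cycle intermediates that the cytosol uses. The liver relies on them for urea synthesis, gluconeogenesis and lipid synthesis.

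Most reads of the family came from the energy exchange. SLC25A6 and SLC25A5, which exchange matrix ATP for cytosolic ADP, and SLC25A3, the phosphate carrier, together held 55.9% of the summed CPM of the 38 genes in the knockout experiment (1785 of 3193 CPM) and 57.7% in the reconstitution experiment (1948 of 3374 CPM). The median average log2 CPM of the family was 4.75 in the knockout and 4.48 in the reconstitution experiment, beside 5.33 and 4.90 over all genes listed, and 15 of 38 members lay above the median of all genes in either experiment. The lowest members were SLC25A35 in the knockout experiment at 2.55 and SLC25A45 in the reconstitution experiment at 2.77, where the lowest genes of the tables had 1.70 and 0.40.

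Among the ADP/ATP carriers, SLC25A6 (NCBI gene 293) had 766 CPM in the knockout experiment (95% exact Poisson interval 747 to 786) and 907 CPM in the reconstitution experiment (896 to 917). These and all other intervals cover counting error only. SLC25A5 had 368 CPM (355 to 382) and 372 CPM (365 to 379). SLC25A4, the form best known from heart and skeletal muscle, had 25.4 CPM, from about 195 reads, and 21.8 CPM (20.1 to 23.5). Long transcripts give more reads, so genes were compared per kilobase, and SLC25A6, SLC25A5 and SLC25A4 stood in this order in both experiments by either length below. Per kilobase of the longest GENCODE transcript SLC25A6 was 1.28-fold above SLC25A5 in the knockout and 1.51-fold above it in the reconstitution experiment, and per kilobase of coding length 2.08-fold and 2.44-fold. SLC25A5 exceeded SLC25A4 by 50.6-fold and 59.6-fold per kilobase of longest transcript, and by 14.5-fold and 17.1-fold per kilobase of coding length, so that the size of this gap depended on the length used and its direction did not. SLC25A6 and SLC25A5 have 6 and 9 pseudogene symbols in RefSeq, and SLC25A6 lies in the region shared by the X and Y chromosomes. Of the 38 genes 12 have such a symbol. Reads shared with such copies could be split or lost in counting, and these levels are uncertain to that extent.

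SLC25A3 was at 651 CPM (633 to 669) in the knockout and 669 CPM (660 to 678) in the reconstitution experiment. Per kilobase of its longest transcript, 6087 bases long, it had rank 3 of the family in the knockout and rank 4 in the reconstitution experiment. Its coding length is 1086 bases, and per kilobase of that length it stood at a log2 level of 9.23 and 9.27, above SLC25A5 at 8.69 and 8.70. Among the carriers that exchange ATP-Mg for phosphate and are gated by calcium, SLC25A24 had an average log2 CPM of 6.53 and 6.50, SLC25A23 of 5.76 and 6.30, and SLC25A25 of 4.38 and 4.10. SLC25A24 exceeded SLC25A25 by 3.87-fold and 4.60-fold per kilobase of longest transcript. No firm order can be given for SLC25A24 and SLC25A23, since their ratio was 1.36 and 0.923 by the longest transcript and 1.72 and 1.16 by coding length.

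Of the organic acid carriers, SLC25A1, which exports citrate for lipid synthesis, had 139 CPM in the knockout experiment (130 to 147) and 211 CPM in the reconstitution experiment (206 to 216). SLC25A11, which exchanges oxoglutarate for malate, had 89.5 and 97.2 CPM, and SLC25A10, the dicarboxylate carrier, 67.0 and 59.2 CPM. SLC25A21, the carrier of oxoadipate, was at 37.1 and 30.7 CPM. Per kilobase, by the longest transcript or by coding length, SLC25A1 was the highest and SLC25A21 the lowest of these 4 genes in both experiments. Per kilobase of coding length SLC25A1 was 2.70-fold above SLC25A10 in the knockout and 4.65-fold above it in the reconstitution experiment.

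SLC25A22, a glutamate carrier, was at 139 CPM (131 to 148) and 107 CPM (103 to 111) and was the highest amino acid carrier per kilobase by either length. Of the aspartate/glutamate carriers of the malate-aspartate shuttle, SLC25A13, the form of liver, stood at 58.1 and 79.7 CPM and SLC25A12, the form of brain and muscle, at 16.5 and 20.7 CPM. SLC25A13 exceeded SLC25A12 by 3.29-fold and 3.59-fold per kilobase of longest transcript and by 3.53-fold and 3.86-fold per kilobase of coding length. Ornithine enters the urea cycle through SLC25A15, which had 26.3 and 21.2 CPM. SLC25A44, a carrier of branched-chain amino acids, had 40.5 and 47.5 CPM, SLC25A38, which serves glycine uptake for heme synthesis, 20.3 CPM in both experiments, and SLC25A29, a carrier of basic amino acids, 19.3 and 14.2 CPM.

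The glutathione carriers differed widely, with 162 and 168 CPM for SLC25A39 and 15.8 and 11.9 CPM for SLC25A40. SLC25A39 was 18.7-fold and 25.6-fold above SLC25A40 per kilobase of longest transcript, and 9.67-fold and 13.2-fold by coding length. For the mitoferrins, which import iron, the order turned with the length used. SLC25A37 had 46.7 and 39.9 CPM and SLC25A28 23.1 and 19.3 CPM, with a ratio of 0.607 and 0.620 by the longest transcript and of 2.17 and 2.22 by coding length.

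The 9 listed carriers of cofactors and nucleotides held 5.52% of the summed CPM of the family in the knockout and 4.54% in the reconstitution experiment. SLC25A17, the carrier of peroxisomes, was the highest of them per kilobase of longest transcript in both experiments (log2 3.81 and 3.46), with 35.4 and 27.8 CPM. SLC25A33, a pyrimidine nucleotide carrier, had 28.5 and 29.2 CPM. By coding length SLC25A17 was the highest in the knockout experiment (log2 5.27, beside 4.89 for SLC25A33). In the reconstitution experiment both stood at 4.92 by that length. SLC25A32 (folate and flavin), SLC25A36 (pyrimidine nucleotides), SLC25A51 (NAD), SLC25A16, SLC25A42 (coenzyme A) and SLC25A26 (S-adenosylmethionine) ranged from 9.24 to 27.6 CPM and from 9.84 to 21.8 CPM. The remaining members were SLC25A20, which brings acylcarnitines in for fatty acid oxidation, the uncoupling-like SLC25A30 and SLC25A14, SLC25A46, which sits in the outer membrane and acts in mitochondrial dynamics, and SLC25A43, SLC25A45 and SLC25A35. SLC25A14 had 11.2 and 11.7 CPM, SLC25A46 had 41.9 and 27.5 CPM, SLC25A43 had 10.1 and 8.72 CPM, and SLC25A45 had 7.67 and 6.80 CPM. SLC25A35 rested on 45.0 reads in the knockout experiment, at 5.85 CPM with an interval of 4.27 to 7.83.

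**Figure D1:**
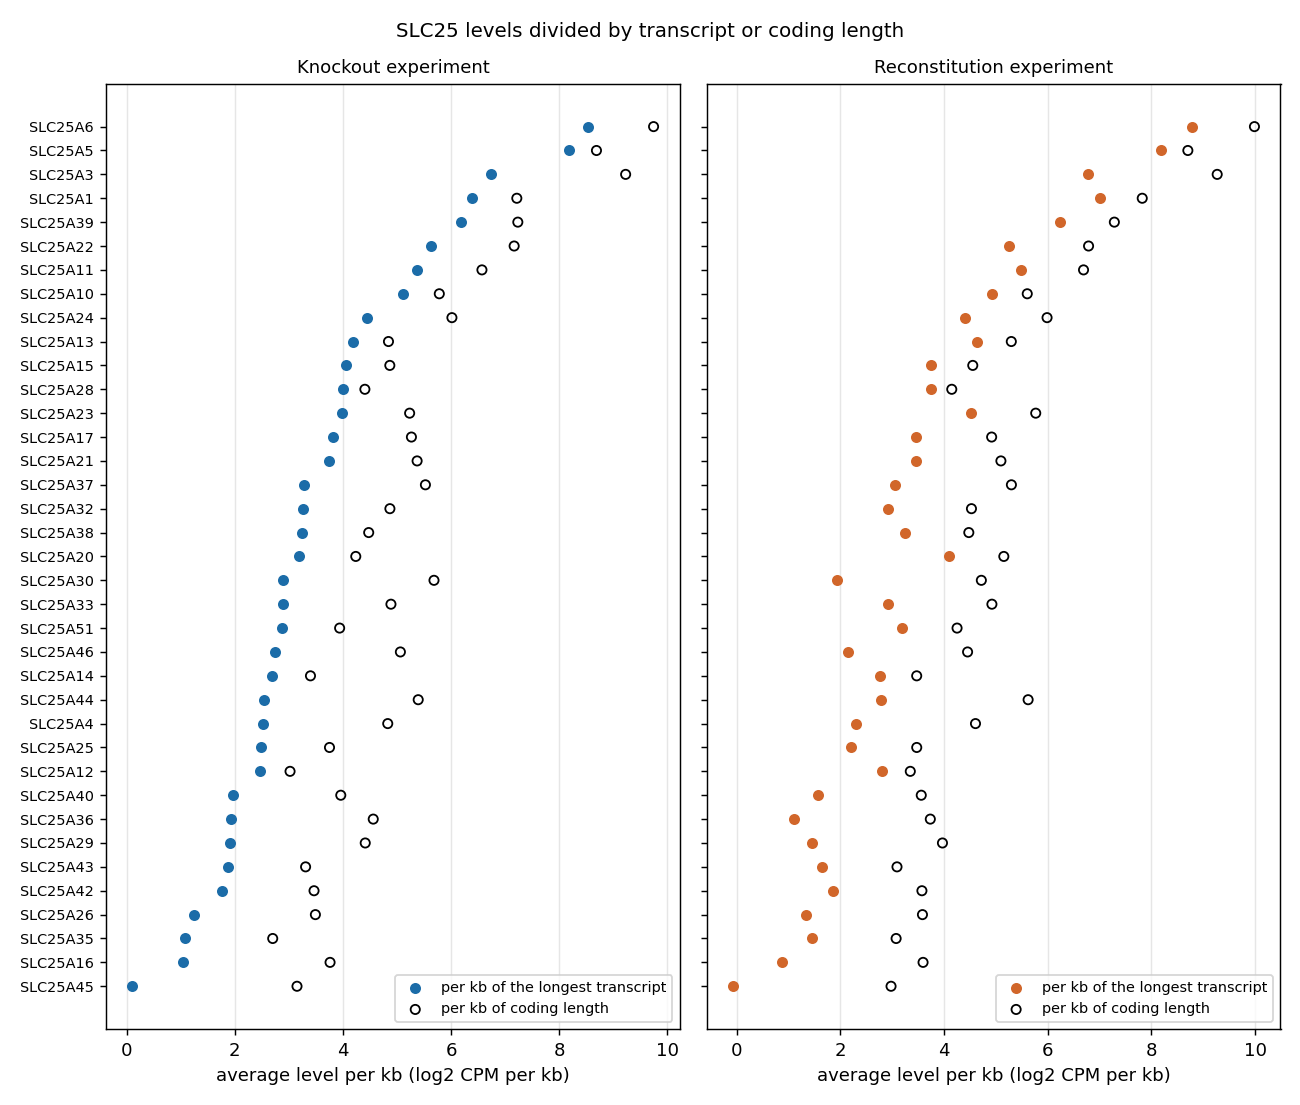
Average level of 37 SLC25 genes per kilobase (log2 CPM per kb, x axis) in the knockout experiment (left) and the reconstitution experiment (right), with filled circles for the longest GENCODE transcript and open circles for coding length, ordered by the filled circles on the left. SLC25A6 is highest on every scale shown, and coding length reorders many of the lower members.

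Over the whole family the order per kilobase was resolved only in part. With the longest transcript, 26 of the 37 pairs of neighbours in the order had overlapping counting intervals in the knockout experiment and 20 of 37 in the reconstitution experiment. By this length SLC25A6 and SLC25A5 headed the order in both, and SLC25A45 closed it, at a log2 level per kilobase of 0.11 and -0.07. These ends depended on the length used. By coding length SLC25A3 stood above SLC25A5 in both experiments. SLC25A35 was then the lowest in the knockout experiment, at 2.70, beside 3.15 for SLC25A45. Of the 10 highest members by longest transcript, 9 in the knockout and 8 in the reconstitution experiment were also among the 10 highest by coding length.

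The averages of both experiments were then set side by side. The tables were normalized separately and hold different groups and libraries, so that these sources of a difference cannot be told apart, and none was tested. Across the 38 genes the levels correlated with a Pearson r of 0.976 and a Spearman's rho of 0.960, where r over the 10976 genes in both tables was 0.939. These are correlations across genes, which are not independent replicates. The average in the reconstitution experiment was higher for 18 members and lower for 20. The median difference, reconstitution minus knockout, was -0.10 for the family and -0.12 for all shared genes. For 32 of 38 members the averages lay within 0.5 of each other on the log2 scale, as they did for 65.8% of all shared genes and for 69.3% of those whose averages reached 3 in both.

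The members outside this range were 6. SLC25A20 had 17.0 CPM (14.2 to 20.2) in the knockout and 32.1 CPM (30.1 to 34.2) in the reconstitution experiment, a log2 difference of 0.91 with a counting SE of 0.13. SLC25A1 and SLC25A23 followed with differences of 0.61 (SE 0.05) and 0.53 (SE 0.08). SLC25A30 was at 44.9 CPM (40.2 to 49.8) and 23.0 CPM (21.3 to 24.7), a log2 difference of -0.97 (SE 0.09). For SLC25A36 the difference was -0.83 (SE 0.13) and for SLC25A46 -0.61 (SE 0.09). For all 6 the counting intervals of the experiments did not overlap, but neither did those of some members inside the range, such as SLC25A6 and SLC25A13. The share of all shared genes without overlap was not computed, so this does not mark out the 6. SLC25A20 lay at percentile 97.9 and SLC25A30 at percentile 9.82 of the differences of all shared genes.

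The difference moved with base composition. Over the 10684 shared genes with a transcript sequence, it had a Spearman's rho of 0.478 with the GC content of the longest transcript, and over the 38 carriers one of 0.393, where all points share the same libraries. SLC25A46, SLC25A36 and SLC25A30 have transcripts of 32.1%, 37.3% and 40.7% GC, and SLC25A20, SLC25A23 and SLC25A1 of 51.1%, 58.5% and 65.6%. Set against the median of shared genes of like GC content, a measure added after the values were seen, SLC25A20 kept a difference of 0.85, SLC25A1 of 0.59 and SLC25A30 of -0.60. SLC25A36 came to -0.15 and SLC25A46 changed sign, to 0.22. SLC25A23 came to 0.48. SLC25A13 and SLC25A24, with transcripts of 44.9% and 38.7% GC, then stood at 0.60 and 0.56, and SLC25A29 at -0.50. Markers of the line differed in both directions. Of the 4 mesenchymal markers FN1 was at -1.12, ZEB1 at -0.82, VIM at -0.02 and CDH2 at 0.34, the epithelial markers KRT8 and KRT18 were at 0.84 and 0.55, and FGB, the hepatocyte marker listed in both experiments, was at -2.80. The part of base composition or of these markers in the differences was not tested.

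MYC binds the E-box CACGTG, and as the study concerns MYC the 250 bases before each start in the RefSeq promoter table (GRCh38.p14) were searched for these letters, which read the same on both strands. Promoters were found for 32 of the 38 genes, 41 in all since some genes have several starts. Of the 41 promoters 7 (17.1%) held the letters, each of another gene, against 6.35% of all 34961 promoters and 8.28% of the 14180 promoters of genes listed in the tables. A match describes the letters and not binding. The letters contain CG, and the promoters of the family held a median of 21 CG pairs in this window, where all promoters held 11. That median was not computed for the promoters of listed genes alone, so the excess may not be particular to the family. The part of base composition in these shares was not tested. The stretches are shown on the strand of the gene, 5′ to 3′, with the E-box in capitals, because they are the members of the family that carry it. They are SLC25A33 at chr1:9539421-9539462 (plus strand), SLC25A38 at chr3:39383308-39383349 (plus), SLC25A26 at chr3:66220933-66220974 and chr3:66220959-66221000 (plus), SLC25A36 at chr3:140941675-140941716 (plus), SLC25A46 at chr5:110738942-110738983 (plus), SLC25A13 at chr7:96322229-96322270 (minus) and SLC25A51 at chr9:37904163-37904204 (minus).
SLC25A33: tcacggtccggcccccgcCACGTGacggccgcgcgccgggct
SLC25A38: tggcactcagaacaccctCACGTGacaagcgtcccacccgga
SLC25A26, first: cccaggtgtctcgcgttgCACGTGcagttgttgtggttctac
SLC25A26, second: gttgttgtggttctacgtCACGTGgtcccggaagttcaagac
SLC25A36: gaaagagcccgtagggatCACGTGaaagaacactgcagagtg
SLC25A46: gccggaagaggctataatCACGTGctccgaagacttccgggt
SLC25A13: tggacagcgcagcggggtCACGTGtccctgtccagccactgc
SLC25A51: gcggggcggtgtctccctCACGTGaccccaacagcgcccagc

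The E-box began 26 bases before the start in SLC25A33, 44 in SLC25A38, 47 in SLC25A46, 59 in SLC25A51, 143 in SLC25A36 and 154 in SLC25A13, and 50 and 24 bases before it in SLC25A26. The CCAAT letters found in the promoters of SLC25A33, SLC25A36 and SLC25A13 do not overlap their E-boxes. Per kilobase of longest transcript the log2 levels of the 7 genes ran from 1.25 for SLC25A26 to 4.19 for SLC25A13 in the knockout experiment. Per kilobase of coding length they ran from 3.49 for SLC25A26 to 5.06 for SLC25A46 there. SLC25A6, SLC25A5 and SLC25A3, the highest members of the family in that experiment by either length, had no CACGTG in this window. For the 7 genes with an E-box the differences between the experiments went both ways, from -0.83 for SLC25A36 to 0.45 for SLC25A13. SLC25A33, SLC25A38 and SLC25A26 were at 0.03, 0.00 and 0.09.

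Genes with other names complete the picture of transport into mitochondria. MTCH1 and MTCH2, family members of the outer membrane that insert proteins there, had average log2 CPM of 7.75 and 7.14 in the knockout and 7.93 and 7.17 in the reconstitution experiment, while UCP1, UCP2 and UCP3 were not among the genes listed. Of 22 further genes for pyruvate, calcium, serine, iron-sulfur and outer membrane transport, 21 were listed in the knockout and 22 in the reconstitution experiment. The outer membrane channel VDAC1 had averages of 8.72 and 8.95 and was the highest of these per kilobase of longest transcript (log2 7.76 and 7.99). The average was higher in the reconstitution experiment for 10 and lower for 11 of the 21 genes, with a median of -0.14. The difference was lowest for MICU2, a regulator of the calcium uniporter, at -1.06, and highest for SFXN3, a serine transporter, at 0.61.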

How the data were processed

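Libraries were made from total RNA of HLF cells with a NEBNext kit and sequenced by the authors. Per the submitters' processing notes, reads were demultiplexed with bcl2fastq 2.20 and processed with STAR 2.5.4, hg19 and edgeR 3.26.8. The counting tool, its use of strand, the filter and the number of libraries are not given in the sources used here. The authors deposited 3 tables, each with an average log2 CPM per gene, scaled to library size. Their fold changes, F statistics, p-values and adjusted p-values are the authors' own comparisons and were not used. The header of the knockout table is shifted by 1 field, and the average was identified by its position and range. Columns of single samples that match no label numbered 0.

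Reads per CPM step were found from the lowest 10% of genes, and a low gene counted as near a whole read when it was off by under 0.1 reads. The step search was tested on simulated whole reads of 1 common step, which does not cover the looser spacing of the reconstitution tables. Such averages usually include a small prior count, so reads and their 95% intervals are approximate. Longest transcript, median transcript and coding lengths and GC content came from GENCODE release 29, matched on NCBI gene IDs for 38 of 38 members. GC content was grouped into 20 bins. All matching genes enter the counts, 1 carrier and 1 marker are not reported here by name, and members and lists were chosen with earlier results of these data known. Values were computed in Python 3.11.15 (scipy 1.17.1, pandas 2.3.3, numpy 2.4.6) and drawn with matplotlib 3.10.9. Alternatives were a floor on the level, centring, other lengths and a GC trend.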

Additional observations from a re-analysis of the deposited data

How the results depend on the processing

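Requiring an average log2 CPM of at least 3 left 36 members in each experiment, with medians of 4.81 and 4.65. Centring on all shared genes turned the median difference of the family to 0.02, and removal of the GC trend, added after the data were seen, to 0.01, so that its sign depended on these choices. The step of the lowest 5% of genes differed little from that of the lowest 10% (0.1298 and 0.0328 CPM). Of the 10 highest members per length, 8 and 9 stayed with the median transcript length and 10 and 9 without division by length. No paired analysis was possible because each group has 1 sample and the values are averages over groups. Depth limited the low members most. Effects of normalization and of single libraries could not be examined from averages.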

Other observations

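The CCAAT box (CCAAT on either strand) was found in 18 of the 41 SLC25 promoters (43.9%), belonging to 17 genes, and in 33.5% of the 14180 promoters of listed genes. The letters CGCATGCG, the centre of the NRF1 motif, were in 0 of 41 promoters and in 3.09% of those of listed genes. A TATAAA was in 3 of 41, belonging to 2 genes, and in 5.89% of those of listed genes. In the promoter of SLC25A5 it began 27 bases before the start. The other matches are the same site of SLC25A26, which lies in overlapping promoters. Promoters of the family had a median GC content of 66.8%, where all promoters had 58.4%. The median for promoters of listed genes alone was not computed. The antisense genes SLC25A25-AS1 and SLC25A5-AS1 were listed only in the reconstitution tables, at average log2 CPM of 1.20 and 1.12. As the use of strand in counting is not given, reads from any stretch that SLC25A25 or SLC25A5 shares with its antisense partner cannot be assigned to either with certainty.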
